A study of Rattus norvegicus with 65 samples.

Results

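The genes Gh1, Prl, Pou1f1, Tshb, Lhb, Fshb, Cga, Ghrhr and Myo15a were followed across 65 hypothalamus libraries of male Wistar rats, 1 library per animal. They are 9 of 38513 genes in the table of counts and were picked by symbol, with earlier results of the same libraries in view: 6 of them were among the genes called between RYGB-treated and BWM animals or between BWM and sham-treated animals. For that reason, their levels and their differences in those 2 comparisons are given as a description.

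The rats were 9 to 10 weeks old at the start and had become obese on a high-fat diet in 6 weeks, apart from the lean group, which was taken to be the group kept on low-fat diet. RYGB, a Roux-en-Y gastric bypass, was done in 14 animals, and 11 sham animals had a sham operation. The 7 body weight-matched (BWM) animals were also sham-operated and had their food restricted so that their weight followed that of RYGB-treated animals. Saline (8), liraglutide (5), PYY3-36 (4) and PYY3-36 + liraglutide (10) groups were obese rats given isotonic saline, 0.4 mg/kg/day of liraglutide, an agonist of the GLP-1 receptor, 0.1 mg/kg/day of the gut hormone PYY3-36 by osmotic minipump, or both agents, and 6 animals were lean. Obese groups other than BWM kept a choice of high-fat and low-fat diet. The animals fasted for 10 h and were killed 4 weeks after their treatment had begun, and the hypothalamus was cut out of the frozen brain. The animals came from 2 experimental periods, which the labels call batches, with 37 libraries in batch A and 28 in batch B. RYGB (11 in A and 3 in B), sham (5 and 6), saline (3 and 5) and PYY3-36 + liraglutide (5 and 5) were in both batches, BWM and lean only in A, and liraglutide and PYY3-36 only in B.

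The anterior pituitary lies below the hypothalamus and takes its orders from it through the portal vessels of the median eminence. Its hormone cells are named by their product. Somatotrophs make growth hormone, lactotrophs prolactin, thyrotrophs thyrotropin, gonadotrophs luteinizing and follicle-stimulating hormone, and corticotrophs cut ACTH from the product of Pomc. Pou1f1, also called Pit-1, is the transcription factor that somatotrophs, lactotrophs and thyrotrophs of the main part of the gland need. A thin sheet of the gland, the pars tuberalis, is wrapped around the median eminence and the stalk. Its own thyrotrophs make Tshb and Cga and carry the melatonin receptor Mtnr1a, without growth hormone, prolactin or Pou1f1.

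By role, the genes fall into 4 sets. Gh1 (growth hormone, chr10:94486204-94488181 of Rnor_6.0) and Prl (prolactin, chr17:39814236-39824299) encode single-chain hormones. Cga (chr5:50362491-50393368) encodes the alpha subunit that all glycoprotein hormones share, and Tshb (chr2:205207799-205215199), Lhb (chr1:101409992-101413725) and Fshb (chr3:98088321-98092131) encode the beta subunits of thyrotropin, luteinizing hormone and follicle-stimulating hormone. Pou1f1 (chr11:2645659-2662581) is the transcription factor, and Ghrhr (chr4:85587321-85602389) is the receptor through which hypothalamic GHRH acts on somatotrophs. Myo15a (chr10:46840098-46897362) encodes an unconventional myosin known from the hair cells of the inner ear. Counts are of reads on the exons of the whole gene, with reads of several places split into fractions. Cga lies across 2 genes of the opposite strand, and the counting used strand.

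The starts of 3 hormone genes are printed because Prl is a textbook target of Pou1f1, and Tshb and Cga are the pair that went together most closely here. The windows hold the 150 bases before the transcription start in RefSeq, in the assembly GRCr8, which is not the build of the counts, so these positions cannot be set beside those above. They are chr17:38298218-38298367 for Prl, minus strand, chr2:192918055-192918204 for Tshb, minus strand, and chr5:54283190-54283339 for Cga, plus strand. Capitals mark TATAAA and ATGNATA, the letters of a TATA box and letters near a site of POU factors, searched on both strands, where TATAAA of the other strand reads TTTATA.
Prl: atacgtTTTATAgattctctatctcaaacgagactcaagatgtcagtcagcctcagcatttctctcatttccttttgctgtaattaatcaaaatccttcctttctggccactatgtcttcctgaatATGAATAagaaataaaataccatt
Tshb: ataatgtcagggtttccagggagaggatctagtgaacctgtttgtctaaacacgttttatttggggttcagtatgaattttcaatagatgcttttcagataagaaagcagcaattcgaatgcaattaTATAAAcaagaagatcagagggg
Cga: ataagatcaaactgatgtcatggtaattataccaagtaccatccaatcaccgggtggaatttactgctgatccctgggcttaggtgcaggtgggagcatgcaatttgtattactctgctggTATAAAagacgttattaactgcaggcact
ATGNATA was found in the Prl window at -24 and in neither of the other 2, and it was in 4.88% of 33469 promoter windows of the same length. TATAAA stood at -23 in Tshb, at -29 in Cga and, on the other strand, at -144 in Prl, against 8.0% of all windows. Promoters were given for 5 of the 9 genes, the other 2 being Lhb and Ghrhr, and the matches are a description of letters.

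After rounding, libraries held between 20040821 and 36539714 counts on genes, with a median of 29571483 in batch A and 23385849 in batch B. Levels are in counts or in CPM. The latter are counts scaled by the library's total over genes with enough counts for the test, adjusted by a factor for each library (TMM). A gene at 0 counts may still be present up to 3 counts of the total, a limit that covers counting error only. The hypothalamus is a bulk tissue here, so fewer cells of a type and less RNA per cell cannot be told apart. The labelled tissue was checked on marker genes. Markers of hypothalamic nuclei were summed over their list to between 122 and 8368 CPM, and none of the 65 libraries lacked them. Summed markers of other tissue were uneven. In the highest library of each, they reached 4072 CPM for striatum, 3661 for choroid plexus, 1950 for cortex and 1337 for thalamus. Their medians were 267, 64.5, 64.4 and 255 CPM, against 1880 for hypothalamus. The part of each tissue in a library was not tested.

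Gh1 was at 0 or a handful of counts in most libraries and very high in a few. In the 7 BWM animals it had 0, 4, 178, 8, 1747368, 36 and 16730 counts in replicates 1 to 7. Among 14 RYGB-treated animals, the lowest, median and highest counts were 0, 4 and 254. Among 11 sham-treated animals, they were 0, 2 and 1365. The highest library of any other group but PYY3-36 had 244 counts, in PYY3-36 + liraglutide replicate 5. In the 4 PYY3-36-treated animals, the counts were 5, 0, 7718 and 11. Thus 4 libraries of 3 groups stood out, with BWM replicates 5 and 7 and sham replicate 3 in batch A and PYY3-36 replicate 3 in batch B. Liraglutide-treated animals had 0, 0, 4, 4 and 0 counts, lean animals between 0 and 87 and saline-treated animals between 0 and 24. A minimum of 10 counts was reached by 19 libraries, 13 in batch A and 6 in batch B.

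Prl followed Gh1 through the same libraries. BWM replicates 1 to 7 had 0, 0, 90, 0, 359018, 10 and 3546 counts of it. PYY3-36 replicates 1 to 4 had 0, 0, 2108 and 2 counts. The highest sham-treated animal was again replicate 3, with 312 counts, and the highest RYGB-treated animal was replicate 14, with 62. All 14 libraries with 10 or more counts of Prl also had 10 or more of Gh1, while 5 libraries reached that minimum for Gh1 alone. Liraglutide-treated animals had no Prl count in any of 5 libraries.

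**Figure D1:**
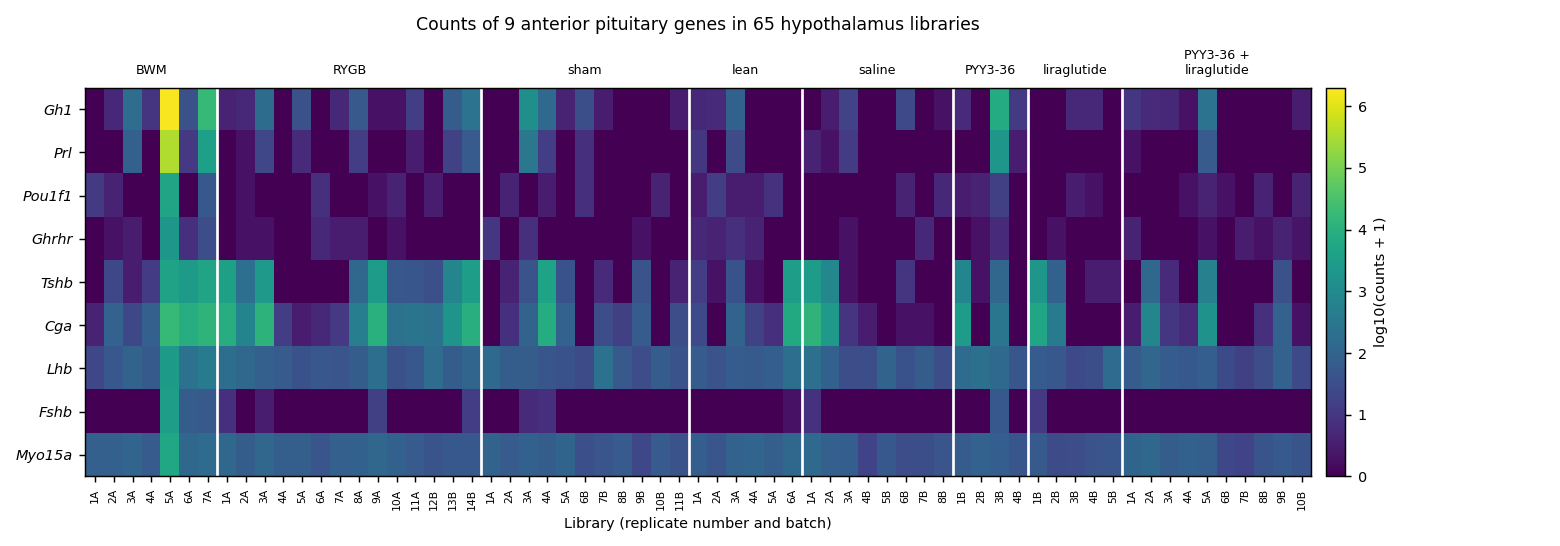
Counts of the 9 genes (vertical) in each of 65 libraries (horizontal, by group, replicate and batch), as log10(counts + 1) in colour. BWM replicate 5 is high for all 9 genes, other libraries are high for Tshb and Cga with little or no Gh1, and Lhb and Myo15a are present in every library.

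Gh1 and Prl also had a similar ratio to each other in the 4 libraries with the most counts of the pair. Prl made up 17.0% of the summed Prl and Gh1 counts in BWM replicate 5 (exact 95% binomial interval 17.0 to 17.1%), 17.5% in BWM replicate 7 (17.0 to 18%), 18.6% in sham replicate 3 (16.8 to 20.6%) and 21.5% in PYY3-36 replicate 3 (20.6 to 22.3%). The share in PYY3-36 replicate 3 lay above those of both BWM libraries by more than the counting error. In the 12 libraries with 50 or more counts of both genes together, it ran from 8.61% to 33.6%. BWM replicate 3 (33.6%, interval 28.0 to 39.6%) lay above those 4 libraries by more than the counting error. RYGB replicate 3 (10.9%, 6.90 to 16.2%) and sham replicate 4 (8.61%, 4.66 to 14.3%) lay below them by more than it. The Pearson correlation of their log2(CPM + 1) values was 0.98 over 65 libraries and 0.97 over the 64 without BWM replicate 5, given here as a description over libraries that differ in depth.

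Cga and Tshb were found in more libraries than Gh1 and Prl, and in part in other ones. Cga had 3, 95, 22, 84, 16723, 8203 and 12696 counts in BWM replicates 1 to 7. In RYGB-treated animals the lowest, median and highest counts were 2, 372.5 and 11846. In sham-treated animals they were 0, 29 and 7994. Cga reached 12545 counts in saline replicate 1, 6779 in lean replicate 6, 5110 in liraglutide replicate 1, 2814 in PYY3-36 replicate 1 and 1637 in PYY3-36 + liraglutide replicate 5, so each of the 8 groups had at least 1 library above 1000. Within each group, other libraries were at or near 0, and the group ranges overlapped.

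Tshb had 0, 22, 2, 12, 4164, 2634 and 4786 counts in BWM replicates 1 to 7. Its lowest, median and highest counts were 0, 86 and 3781 in RYGB-treated and 0, 3 and 4640 in sham-treated animals. The highest level in CPM was that of sham replicate 4 (169 CPM), above BWM replicate 5 (149 CPM), so Tshb is the only one of the 9 genes for which BWM replicate 5 was not the highest library. Every one of the 31 libraries with 10 or more counts of Tshb also had 10 or more of Cga. Tshb made up between 15.1% and 36.7% of the 2 genes' summed counts in the 18 libraries with 500 or more (median 24.5%), and their Pearson correlation was 0.98 both over 65 libraries and without BWM replicate 5.

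**Figure D2:**
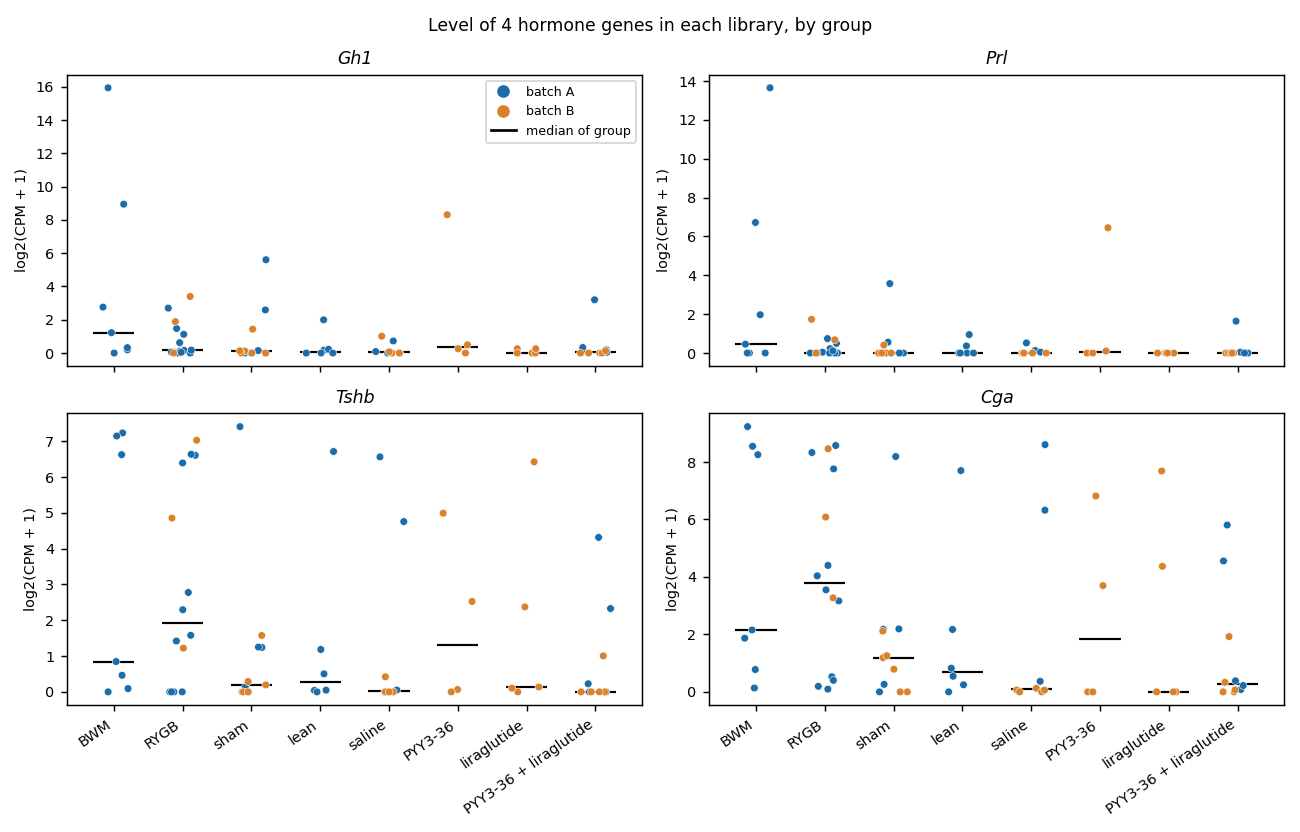
Level of Gh1, Prl, Tshb and Cga in each library as log2(CPM + 1) (vertical) by group (horizontal), with the batch in colour and the group median as a line. The groups overlap for all 4 genes, and the highest Gh1 and Prl libraries are BWM replicates 5 and 7 and PYY3-36 replicate 3.

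The 2 pairs of hormone genes were not high in the same libraries throughout. Cga had 1000 or more counts in 15 libraries (11 in batch A and 4 in batch B), a limit set after the values were seen, and the same 15 libraries had 500 or more counts of Tshb. Of these 15, 7 had fewer than 10 counts of Gh1 and 3 had none. Prl was under 10 counts in 7 and at 0 in 5. RYGB replicate 1 had 8452 counts of Cga and 3781 of Tshb beside 3 of Gh1 and 0 of Prl. Lean replicate 6 had 6779 and 3402 beside 0 and 0, and saline replicate 1 had 12545 and 3025 beside 0 and 3. Sham replicate 3 was the reverse, with 1365 counts of Gh1 and 312 of Prl beside 102 of Cga and 39 of Tshb, and PYY3-36 replicate 3 had 7718 and 2108 beside 292 and 116. Over 65 libraries, the Pearson correlation of Gh1 and Cga was 0.43, and it was 0.36 without BWM replicate 5.

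Pou1f1 was close to 0 in nearly every library. It had 11, 3, 0, 0, 4851, 0 and 52 counts in BWM replicates 1 to 7. At most 6 counts were found in any RYGB-treated or sham-treated animal, and the highest values elsewhere were 15 in PYY3-36 replicate 3 and 13 in lean replicate 2. It was thus low also where Cga and Tshb were high. Of the 15 libraries with 1000 or more counts of Cga, 13 had fewer than 10 of Pou1f1 and 9 had none. The Pearson correlation of Pou1f1 with Cga was 0.27 over 65 libraries and 0.04 without BWM replicate 5, and the Spearman correlation over 65 libraries was -0.17.

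**Figure D3:**
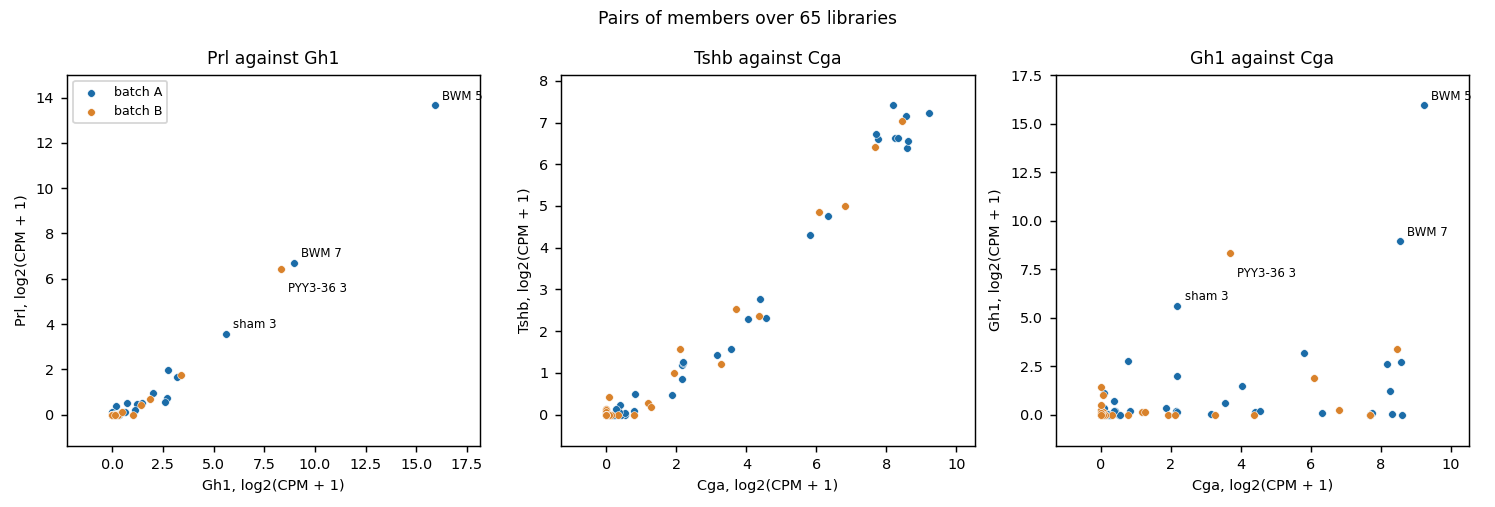
Pairs of genes plotted against each other in 65 libraries as log2(CPM + 1) on both axes, with batches in colour. Prl lies along a line with Gh1 and Tshb with Cga (Pearson r of 0.98 each), whereas Gh1 is at 0 in 3 of the 15 libraries with the most Cga (r of 0.43).

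Ghrhr had 10 or more counts only in BWM replicates 5 (2212) and 7 (29), and at most 9 in any other library. It is the 1 gene of the 9 with too few counts for the test. Fshb had 3280 counts in BWM replicate 5, 70 in BWM replicate 6, 55 in BWM replicate 7 and 53 in PYY3-36 replicate 3. In all, 7 libraries had 10 or more counts of Fshb, each also with 10 or more of Cga.

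Lhb and Myo15a behaved unlike the other 7 genes, since they were found in all 65 libraries. Apart from BWM replicate 5, Lhb had between 15 and 363 counts and Myo15a between 18 and 162. In BWM replicate 5 they had 2755 and 5706 counts. BWM replicate 7 was the next highest for both, with 363 and 162. In 20 libraries (7 in batch A and 13 in batch B), they were the only genes of the 9 with 10 or more counts. Their correlation was 0.75 over 65 libraries and 0.48 without BWM replicate 5.

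The median Pearson correlation over the 36 pairs of genes was 0.71 in 65 libraries and 0.42 without BWM replicate 5. Within batch A it was 0.83, and 0.49 without that library. Within batch B it was 0.31. How far the 9 genes rose together thus depended on a single library, while the pairs of Gh1 with Prl and of Tshb with Cga did not.

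BWM replicate 5 stood apart from the other 64 libraries. Gh1 alone took 6.35% of its counts and was its most abundant gene, and Prl took 1.30% and was the next. Gh1 was at 62724 CPM there, 127-fold above the next library (492 CPM). The same ratio was 124 for Prl, 114 for Pou1f1, 93.1 for Ghrhr, 45.3 for Fshb, 43.0 for Myo15a and 9.26 for Lhb, but 1.55 for Cga and 0.885 for Tshb. This library held 98.5% of all Gh1 counts and 96.8% of all Pou1f1 counts in the study, against 13.6% of Cga and 11.2% of Tshb. Per kilobase of exon, its levels were 77341 CPM for Gh1, 12836 for Prl, 869 for Cga, 71.1 for Fshb, 65.9 for Pou1f1, 48.6 for Tshb, 42.1 for Lhb, 18.7 for Ghrhr and 17.3 for Myo15a. Gh1 and Prl thus came first, and Pou1f1 lay between the beta subunits Fshb and Tshb in level.

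Other genes of the anterior pituitary were high in BWM replicate 5 as well. Of 16 such genes in a list written from general knowledge, 13 had their highest CPM there, among them the pituitary transcription factors Pitx1 (1781 counts), Lhx3 (792) and Neurod4 (999), Tbx19 of corticotrophs (617) and the GnRH receptor Gnrhr of gonadotrophs (466). Hesx1, a factor of the embryonic gland, was at 0. The summed level of the list was 421 CPM in this library against a median of 42.9 and a lowest value of 12.6 over the libraries. By group, it ran from 13.5 to 82.0 CPM in the other 6 BWM libraries, from 14 to 99.1 in RYGB, from 15.0 to 66.4 in sham, from 12.6 to 70.6 in lean, from 19.1 to 74.9 in saline, from 20.5 to 69.8 in liraglutide, from 13.8 to 78.0 in PYY3-36 and from 24.8 to 59.0 in PYY3-36 + liraglutide. Genes of secretory granules, which the hypothalamus shares, were also highest in it, with 34591 counts of Chga, 50147 of Chgb and 52303 of Scg2. Markers of hypothalamic nuclei were near the middle, at 1699 CPM and rank 39 of 65. The list of genes by which the hypothalamus controls the pituitary was low, at 311 CPM and rank 62. It holds peptides and enzymes of the hypothalamus and also Gnrhr. The part of pituitary tissue in these levels was not tested.

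BWM replicate 7, the library with the next highest Gh1, was like BWM replicate 5 in its high summed level of pars tuberalis genes (549 CPM, rank 2 of 65 after BWM replicate 5) and its low level of genes of hypothalamic control (272 CPM, rank 63). The 4 pars tuberalis genes include Cga (373 CPM) and Tshb (141 CPM in BWM replicate 7), so the sum for the most part restates these 2 members. Pomc was highest there of all libraries (79661 counts, against 32989 in BWM replicate 5 and 31183 in sham replicate 3), and Pax7, a factor of the intermediate lobe of the pituitary, was too (88 counts, against 6 in BWM replicate 5). The summed level of 5 intermediate lobe genes was highest in BWM replicate 7 (2445 CPM), followed by BWM replicate 6 (2254 CPM), BWM replicate 5 (1357 CPM) and sham replicate 3 (1197 CPM). Meninges markers had their next-to-highest sum in BWM replicate 7 (3703 CPM). Neurons of the arcuate nucleus make Pomc as well, and it was found in all 65 libraries.

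Some genes of the pars tuberalis and of the median eminence were found in the libraries that carried Cga and Tshb. Mtnr1a, the melatonin receptor of the pars tuberalis, had 10 or more counts in 10 of the 15 libraries with 1000 or more counts of Cga and in none of the 27 with fewer than 10. It was highest in RYGB replicate 14 (63 counts) and had 2 counts in BWM replicate 5. Eya3, the remaining gene of the 4 listed for the pars tuberalis, was not confined to libraries with Cga. The 4 genes summed to 20.7 CPM or more in every library, also where Cga, Tshb and Mtnr1a were each under 10 counts. Pitx1 had 10 or more counts in all 15 and in none of the 27. Rax, a factor of tanycytes, the lining cells of the third ventricle at the median eminence, likewise had 10 or more counts in 15 of 15 and in 0 of 27. Over 65 libraries, the Pearson correlation with Cga was 0.88 for Rax and 0.75 for Mtnr1a. In batches A and B it was 0.90 and 0.89 for Rax, and 0.73 and 0.84 for Mtnr1a. Other tanycyte genes were less like Cga, with 0.78 for Scn7a, 0.60 for Gpr50, 0.01 for Crym and -0.08 for Lhx2. The summed level of all 8 genes of that list had a Pearson correlation of 0.17 with Cga over 65 libraries, 0.24 in batch A and 0.08 in batch B.

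Some genes of the arcuate nucleus, which adjoins the median eminence, had high correlations with Cga too. They were 0.83 for Agrp and for Pomc, 0.75 for Ghrh, the releasing hormone of growth hormone, 0.71 for Kiss1 and 0.48 for Th, the enzyme of the dopamine that holds back prolactin. Ghrh was at 0.70 in batch A and 0.83 in batch B. Of the other listed genes of hypothalamic neurons, some were not alike to Cga, with 0.28 for Trh, 0.20 for Avp, 0.01 for Sst, -0.08 for Crh and -0.13 for Gnrh1. These correlations describe 65 libraries, and the part of arcuate tissue in the levels of Cga was not tested.

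**Figure D4:**
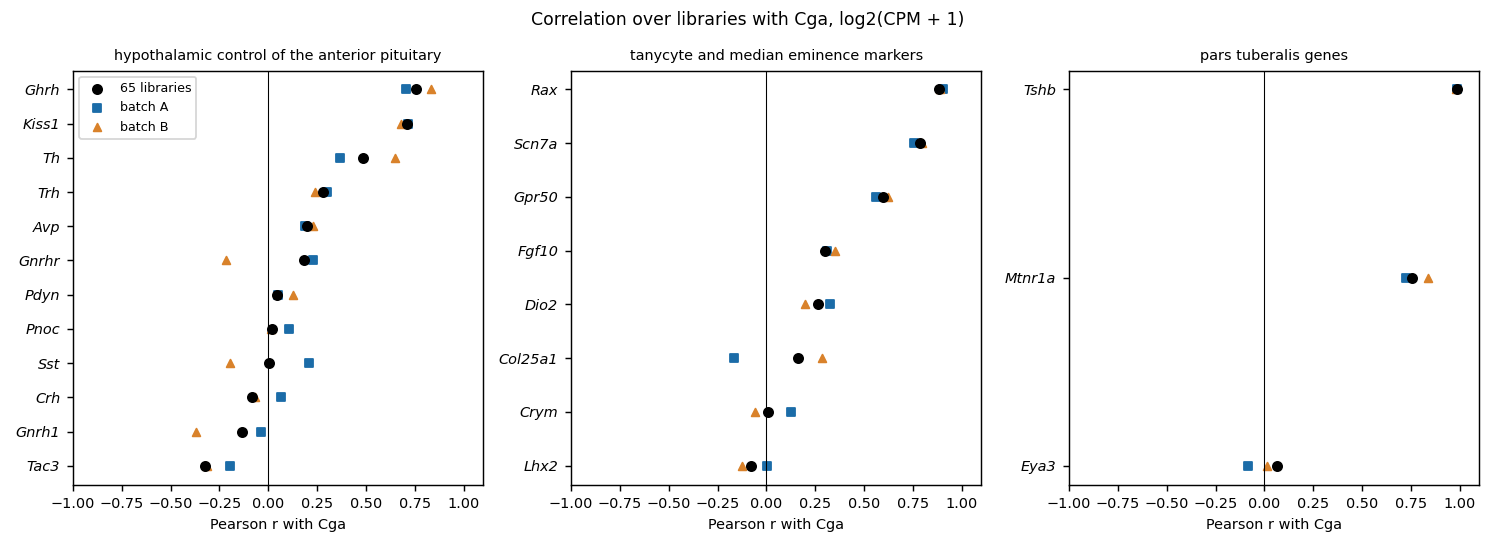
Pearson correlation with Cga (horizontal) over libraries of log2(CPM + 1) for genes of 3 fixed lists (vertical), over 65 libraries and within each batch. Rax and Mtnr1a lie at 0.88 and 0.75 over 65 libraries, while Crh and Lhx2 lie at -0.08.

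Among all genes that passed the filter, the 10 most like the mean of the members over 65 libraries were led by Esrp1 (Pearson r 0.93), Cdcp1 (0.92), Prss8 (0.91) and Tmem184a (0.91), and held Pitx1 (0.89). Esrp1, a splicing factor of epithelia, had 1031 counts in BWM replicate 5 and at most 76 in any other library. Without BWM replicate 5, the order was led by Pitx1 (0.86) and held Pomc (0.85), Rax (0.84) and Tbx3 (0.84). Genes most like Cga alone were Aox2 (0.93), Col22a1 (0.91), Nmu (0.90) and Fndc3c1 (0.89), a likeness computed after the values were seen.

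For BWM vs. sham, edgeR's quasi-likelihood test called 60 of 21871 genes (0.274%), and 59 of them were higher (0.27%). A call needed an adjusted p below 0.05 and a log2 fold change beyond 1 in either direction. Gh1 (log2 fold change 10.65, SE 1.85), Prl (10.35, SE 1.76), Pou1f1 (9.31, SE 1.38), Fshb (8.41, SE 1.55), Myo15a (3.26, SE 0.53) and Lhb (2.60, SE 0.59) were among those. Tshb (1.53, SE 1.54) and Cga (2.33) were not. In RYGB vs. BWM, where 60 genes were called (0.274%), all lower, the same 6 were lower, and Tshb (1.09) and Cga (1.14) were not called. The 2 comparisons share the BWM libraries, and both had been used to choose the genes, so nothing is read from these counts. DESeq2 called Lhb alone of the 9 members in either comparison. It called 171 of 23058 genes in BWM vs. sham and 41 of 28885 in RYGB vs. BWM. Those totals hold only genes with an adjusted p, which some of the 9 may lack.

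Leaving out BWM replicate 5 left 4 genes called in BWM vs. sham (0.0183%), with none of the 7 tested members among them, and 2 genes in RYGB vs. BWM (0.00917%), again with none. In each, 3 of the 7 had an unadjusted p under 0.05, on a measure that the choice of genes had used. The log2 fold changes over sham were then 3.94 (SE 1.39) for Gh1, 3.85 (SE 1.37) for Prl, 3.78 (SE 1.30) for Fshb, 0.58 for Lhb, 0.04 for Myo15a, 1.03 for Tshb and 1.62 for Cga. Pou1f1 did not pass the filter without that library. Among the other anterior pituitary genes, Neurod4 alone of 14 tested was called higher in BWM vs. sham with all libraries (2.53, SE 0.55), and the median was 1.57 over the list against 0.00 over all genes. Without BWM replicate 5, Neurod4 was at -0.22 (SE 0.38, adjusted p = 0.895), and the median over the 13 tested was 0.00 against -0.03 over all genes, an alternative added after seeing the data.

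**Figure D5:**
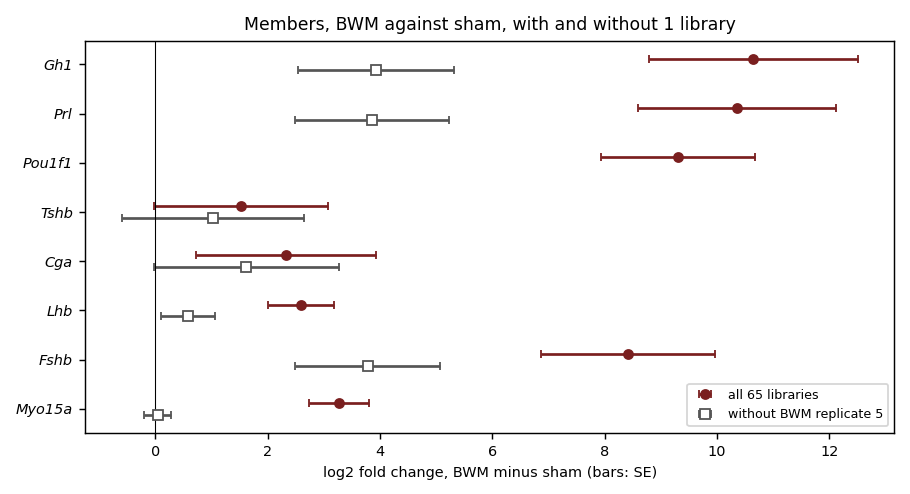
Log2 fold change of BWM over sham (horizontal) with its SE (bars) for the tested genes (vertical), with all libraries and without BWM replicate 5. Gh1 goes from 10.65 to 3.94 and Myo15a from 3.26 to 0.04 when that library is left out.

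For RYGB vs. sham, 518 of 21871 genes were called (2.37%, with 2.0% higher and 0.37% lower), and 0 of 8 members were. Cga was the nearest, with a log2 fold change of 3.47 (SE 1.62, adjusted p = 0.137), followed by Tshb (2.62, SE 1.59, adjusted p = 0.264). Gh1 (-1.29, SE 1.38) and Prl (-1.84, SE 1.48) were further from the threshold, and DESeq2 called 0 members as well. At an unadjusted p under 0.05, edgeR found 1 member, namely Cga. The ranges of counts overlapped for every gene.

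The batches gave different values for this comparison. Within batch B, Cga had 221, 1781 and 9344 counts in the 3 RYGB-treated animals and between 0 and 69 in the 6 sham-treated animals. Tshb had 34, 745 and 3444 against 0 to 41. The log2 fold changes there were 6.96 (SE 1.88) for Cga and 7.04 (SE 1.90) for Tshb, and both were called by edgeR (adjusted p = 0.0174 and 0.0173), where 2.94% of genes were called and 2.67% were higher. The counts of Cga did not overlap in batch B, and those of Tshb did. The share of all genes without overlap there was not computed, so nothing is read from this. Within batch A, Cga had 2 to 11846 counts in 11 RYGB-treated and 0 to 7994 in 5 sham-treated animals, with a log2 fold change of 0.59 (adjusted p = 0.880), and Tshb of -0.36 (adjusted p = 0.925), where 1.35% of genes were called and 1.05% were higher. Gh1 and Prl were at 3.79 and 4.17 in batch B and at -3.60 and -4.13 in batch A, none of them called. The difference between the batches, tested as an interaction, was 6.39 (SE 2.76, adjusted p = 0.385) for Cga and 7.41 (SE 2.86, adjusted p = 0.310) for Tshb, 7.40 (SE 2.88, adjusted p = 0.320) for Gh1 and 8.33 (SE 4.08, adjusted p = 0.473) for Prl, and edgeR called 0 genes. An unadjusted p under 0.05 was found for 2268 genes and 4 members, and DESeq2 called 130 genes and 0 members.

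A single sham-treated animal of batch A decided part of the result. Without sham replicate 4, Tshb (log2 fold change 5.91, adjusted p = 0.0301) and Cga (5.95, adjusted p = 0.0298) were called in RYGB vs. sham, where 1.82% of genes were called and 1.5% were higher. Without sham replicate 3, the values of Gh1 and Prl turned to 1.09 and 1.87. Among the genes of hypothalamic control of the pituitary, Th was called higher in RYGB vs. sham (2.12, SE 0.72, adjusted p = 0.0425) and the other 11 were not, with a median of -0.19 over the list against -0.02 over all genes.

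For PYY3-36 vs. saline, edgeR called 0 genes (0%), with 1649 genes and 3 members at an unadjusted p under 0.05, and DESeq2 called 13 genes and 0 members. Gh1 was at a log2 fold change of 8.98 (SE 2.31, adjusted p = 0.519) and Prl at 8.83 (SE 2.30, adjusted p = 0.535). Both rested on PYY3-36 replicate 3, since without it the values were 0.48 and -0.59. Within batch B, which holds all PYY3-36 libraries, edgeR called 0 of 20628 genes. There, 3251 genes and 7 of 7 tested members had an unadjusted p under 0.05. Liraglutide vs. saline gave 0 called genes, with 456 genes and 0 members at an unadjusted p under 0.05, and DESeq2 called 12 genes and 0 members. In PYY3-36 + liraglutide vs. saline, 1 gene was called (0.00457%), no member, while DESeq2 called 17 of 33425 genes and 1 member, Fshb. That call rests on 1 library, since Fshb had 7 counts in saline replicate 1 and 0 in every other library of these 2 groups. Lean vs. sham gave 0 genes, with 2674 genes and 0 members at an unadjusted p under 0.05 and 4 genes and 0 members by DESeq2. The groups given PYY3-36, liraglutide or both were compared with the same saline animals, and RYGB, BWM and lean with the same sham animals.

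In the order of group medians of CPM, BWM was first for Gh1, followed by PYY3-36, RYGB and sham, and liraglutide was last. RYGB was first for Cga, followed by PYY3-36, BWM and sham, with liraglutide last again. These medians pool the batches, which the groups share unequally, so the order of groups and the batch cannot be told apart for the 4 groups in 1 batch. Within batch A, the median of Cga was 2479 counts in saline (3 libraries), 259 in RYGB (11), 97 in sham (5), 95 in BWM (7), 20 in lean (6) and 9 in PYY3-36 + liraglutide (5). Within batch B, it was 1781 in RYGB (3), 146 in PYY3-36 (4), 22 in sham (6), 1 in saline and in PYY3-36 + liraglutide (5 each) and 0 in liraglutide (5). For each of the 9 genes, the ranges of all 28 pairs of groups overlapped, neighbours in the order included. Cga had 10 or more counts in 26 of 37 libraries of batch A and 12 of 28 of batch B. In batch A these were 9 of 11 in RYGB, 6 of 7 in BWM, 3 of 5 in sham, 4 of 6 in lean, 2 of 3 in saline and 2 of 5 in PYY3-36 + liraglutide. In batch B they were 3 of 3 in RYGB, 4 of 6 in sham, 2 of 4 in PYY3-36, 2 of 5 in liraglutide, 0 of 5 in saline and 1 of 5 in PYY3-36 + liraglutide.

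Cga and Tshb were lower in batch B than in batch A after the groups were taken into account. The log2 fold changes were -3.48 (SE 1.32, adjusted p = 0.0298) and -3.14 (SE 1.31, adjusted p = 0.0479), where 1094 genes (5.0%) were called and 967 (4.42%) were lower. Over all groups of each batch, which are not the same groups, Cga was at 0 counts in 2 libraries of batch A and 11 of batch B. Its median over them was 97 counts in batch A and 1.5 in batch B. Of the groups in both batches, RYGB alone went the other way. Its median of Cga was 259 counts in batch A (11 libraries) and 1781 in batch B (3 libraries). Gh1 (95% interval -3.59 to 1.27), Prl (-1.36, SE 1.45), Lhb (0.05, SE 0.36), Fshb (-0.54, SE 1.31) and Pou1f1 (0.99) did not pass the test, nor did Myo15a (-0.75, SE 0.34, adjusted p = 0.0711). Without BWM replicate 5, Myo15a was at -0.74 (SE 0.15, adjusted p = 6.0e-05), short of a call by its fold change alone. Of 5 tested blood markers, 4 were higher in batch B. Leaving out each of the 65 libraries in turn kept both calls in 40 cases, 1 of them in 23 and neither in 2. The calls of Cga and Tshb were both lost without sham replicate 4 (-2.06 and -1.76, adjusted p = 0.184 for Cga), and without PYY3-36 + liraglutide replicate 5 (-3.08 and -2.68, adjusted p = 0.0538 for Cga).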

How the data were processed

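RNA of hypothalamus was sequenced by the authors as stranded poly-A libraries, read from one end. They trimmed reads with cutadapt, mapped them with STAR 2.7.2b to Rnor_6.0 and counted them on exons of RefSeq genes with featureCounts 1.6.4, by strand and with multi-mapping and overlapping reads as fractions. What the authors deposited are hence estimated counts per gene without normalization, and 30.3% of nonzero values were not whole at a tolerance of 1e-06. The piece of hypothalamus was cut from the frozen brain by hand.

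Counts were rounded for the tests and left as deposited for levels. CPM were counts scaled by the library's total over the genes that passed the filter, adjusted by its TMM factor. Groups and batches came from the labels. Tests were made in R 4.3.3 with edgeR 4.0.16 (filterByExpr with a minimum count of 10 and total of 15, TMM, robust quasi-likelihood model of group and batch over 65 libraries, Benjamini-Hochberg adjustment over 21871 genes). DESeq2 1.42.0 was an alternative, beside other scaling, no filter, no batch term, single batches, the 2 compared groups alone, the replicate block and leaving out each library. P-values measure the spread between animals. The SE of an edgeR log2 fold change was worked back from the test, as its size divided by the square root of F. The interval of a log2 fold change was built on this SE. Detection used a minimum of 10 counts, with 3 and 30 as alternatives. Pearson correlations used log2(CPM + 1) with these TMM-scaled CPM. Python 3.11.15, numpy 2.4.6, pandas 2.3.3, scipy 1.17.1 and matplotlib 3.10.9 were used.

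The members and lists were chosen with earlier results of these data known. Genes named were the members, the genes of the lists, and the 10 genes most like the members' mean, with and without the highest library, and, chosen after seeing the data, the genes most like Cga alone. Of 127 listed symbols, 1 was not found, and some listed genes are not reported here. Replicate numbers are shared between groups. For liraglutide and saline, same-numbered libraries deviated together in 5 of 5 pairs (correlation 0.32 to 0.61), which is a hint from the data alone. No label says that they are pairs, and in numbers 1, 2 and 3 the libraries were of different batches. The replicate block changed no call of a member in that comparison.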

Additional observations from a re-analysis of the deposited data

Results flagged for a closer look

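In 31 of 54 tests over groups of 4 to 10 libraries, 1 library lay farther from the others in CPM than Dixon's 95% critical value allows. Chance flags about 1 in 20 groups, and values piled up at 0 make such flags more frequent.

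BWM replicate 5 was farther for 7 genes, with 62724 CPM of Gh1, 12887 of Prl, 174 of Pou1f1, 98.9 of Lhb, 118 of Fshb, 79.4 of Ghrhr and 205 of Myo15a, but not for Tshb or Cga. PYY3-36 replicate 3 stood out for Gh1 (317 CPM), Prl (86.5) and Fshb (2.17), and PYY3-36 replicate 1 for Tshb (30.8) and Cga (112). Among animals given PYY3-36 + liraglutide, replicate 5 stood out for Gh1 (8.20 CPM), Prl (2.12), Tshb (18.9) and Cga (55.0). Lean replicate 3 was above the others for Gh1 (2.99 CPM) and Prl (0.928), and lean replicate 6 for Tshb (104), Cga (207), Lhb (5.66) and, on 1 count, Fshb (0.0306).

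Liraglutide replicate 1 stood out for Tshb (84.9 CPM), Cga (205) and Fshb (0.442), and liraglutide replicate 2 for Ghrhr, on 1 count (0.0481 CPM). In the saline group, replicate 1 was above the others for Tshb (93.6 CPM), Cga (388) and Fshb (0.217), replicate 3 for Prl (0.436) and replicate 7 for Ghrhr (0.177). RYGB and sham had more than 10 animals and were not tested.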

How the results depend on the processing

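In BWM vs. sham, 6 of 8 tested members were called. The replicate block left 0 of 8 (1 of 21871 genes called), only the 2 groups compared 2 of 5 (308 of 19524), and DESeq2 1 of 9, Lhb (171 of 23058). In RYGB vs. BWM, 6 of 8 became 0 of 8 (0 of 21871), 1 of 6 (1 of 20088) and 1 of 9 (41 of 28885). In RYGB vs. sham, members called went from 0 to 2 of 7 within batch B (607 of 20628 genes). In PYY3-36 + liraglutide vs. saline they went from 0 to 1 of 9 with DESeq2 (17 of 33425), on Fshb counts of saline replicate 1 alone. In batch B vs. batch A they went from 2 to 1 of 9 with no filter (2099 of 33452). For DESeq2, the 9 are the members fitted, while the totals of genes hold only those with an adjusted p. With 1 library left out at a time, the number of members called ran from 0 to 6 in BWM vs. sham and in RYGB vs. BWM. It ran from 0 to 2 in RYGB vs. sham and in batch B vs. batch A, and stayed at 0 in the other comparisons. No label says that numbers of replicates pair animals, and only for liraglutide and saline was every same-number correlation over 0.1.

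Signs of uncalled log2 fold changes turned as follows. With the replicate block, Tshb and Cga were at -2.19 and -1.54 in BWM vs. sham, -0.012 and -1.20 in RYGB vs. BWM, and -2.20 and -2.75 in RYGB vs. sham. In RYGB vs. BWM, Tshb and Cga were at -0.79 and -0.88 with no batch term, -0.79 and -0.87 with only the 2 groups compared and -1.07 and -1.04 within batch A. In RYGB vs. sham, Tshb was at -0.36 within batch A, and Gh1 and Prl were at 3.79 and 4.17 within batch B and 1.09 and 1.87 without sham replicate 3, and Prl at 1.01 with DESeq2. With 1 library left out at a time, Gh1 ran from -2.36 to 1.09 and Prl from -3.37 to 1.87 there, and Prl from -0.59, without PYY3-36 replicate 3, to 10.26 in PYY3-36 vs. saline. The correlation of Pou1f1 and Cga was -0.17 by Spearman, -0.23 without the 2 libraries farthest from the median, an alternative chosen after seeing the data, and -0.10 in batch B. In batch B vs. batch A, the replicate block gave -10.39 for Tshb and -9.17 for Cga. Of 447 alternatives for the 14 log2 fold changes that passed the test, none turned the sign and 71 missed the threshold. The cause was not tested.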
